A study of Homo sapiens with 30 samples.

Results

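Differentiation of H7 cells, a human embryonic stem cell line, into cardiomyocytes begins with a pulse of CHIR99021, and the change over that opening day was read by comparing D1 cells with undifferentiated hESC. Members were the entries of the time-course table with at least 5 FPKM (fragments per kilobase of transcript, scaled to the mapped total) in the D1 or the hESC column. There were 11501 such entries of 41495, of which 10333 were protein-coding, 243 were small RNAs kept apart here, 245 were other noncoding genes and 680 had a name with no gene type in the annotation used. D1 cells had their medium replaced by RPMI1640 with B27 minus insulin and 12 µM CHIR99021, given for 24 hours, and the labels do not state at which hour of that day they were collected. hESC were H7 cells at passage p60 that had been dissociated with Accutase, seeded with Y27632 on Synthemax II and kept in E8 medium. D2 and D3, quoted beside D1 where useful, follow in the same course, in which the WNT inhibitor IWP4 replaced CHIR99021 for the next days. CHIR99021, the loss of insulin and E8 factors and another day of culture came together, so their effects cannot be told apart.

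Each group had 2 libraries of total RNA depleted of ribosomal RNA, but the table gives 1 FPKM value per gene and time point. No spread between libraries can therefore be set beside any value, and no test was possible. A gene is called higher or lower here when log2(FPKM + 1) at D1 differed from that in hESC by at least 1, that is 2-fold, and "difference" below always means D1 minus hESC on that scale. The scale understates changes of genes with low values. A member below 5 FPKM in 1 of the 2 columns passed only through the other, so the filter set its direction. In these bulk samples a smaller number of cells of a type and less RNA per cell cannot be told apart. Protein-coding genes held 78.7% of the summed FPKM at D1 and 44.7% in hESC, and small RNAs held 16.7% at D1 and 49.5% in hESC. FPKM divides by length, so these are not shares of reads, and the part of this shift in the differences below was not tested. Genes with at least 1 FPKM numbered 15084 at D1 and 15902 in hESC.

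GSK3 is the kinase that, together with AXIN and APC, marks beta-catenin for destruction. WNT ligands bound to FZD and LRP receptors switch that complex off, and CHIR99021 reaches the same step by blocking GSK3 inside the cell. Stabilised beta-catenin joins TCF and LEF proteins on DNA and turns on target genes, many of which (AXIN2, DKK1, NKD1, ZNRF3) feed back to restrain the pathway. In the embryo WNT and NODAL signals together form the primitive streak, from which mesoderm, including that of the heart, and endoderm arise.

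Promoters of 4 of the genes with the largest increases carry letters of the TCF/LEF site and are shown for that reason. The search covered the 250 bases before the start site, on both strands, for CTTTGAA and CTTTGAT, whose reverse complements are TTCAAAG and ATCAAAG. Sequences are from RefSeq on GRCh38.p14, written 5′ to 3′ along the gene, with the matches in capitals.
SP5, chr2:170715087-170715336, plus strand: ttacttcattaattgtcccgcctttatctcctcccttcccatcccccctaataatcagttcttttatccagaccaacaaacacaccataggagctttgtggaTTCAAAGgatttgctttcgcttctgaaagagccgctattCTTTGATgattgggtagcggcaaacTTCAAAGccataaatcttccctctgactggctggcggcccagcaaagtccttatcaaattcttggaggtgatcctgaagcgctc
DKK1, chr10:52314031-52314280, plus strand: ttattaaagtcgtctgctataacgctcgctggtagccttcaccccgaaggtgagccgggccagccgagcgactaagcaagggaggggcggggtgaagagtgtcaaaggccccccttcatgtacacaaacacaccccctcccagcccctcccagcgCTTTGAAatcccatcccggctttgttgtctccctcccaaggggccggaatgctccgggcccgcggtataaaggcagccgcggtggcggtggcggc
CDX2, chr13:27969316-27969565, minus strand: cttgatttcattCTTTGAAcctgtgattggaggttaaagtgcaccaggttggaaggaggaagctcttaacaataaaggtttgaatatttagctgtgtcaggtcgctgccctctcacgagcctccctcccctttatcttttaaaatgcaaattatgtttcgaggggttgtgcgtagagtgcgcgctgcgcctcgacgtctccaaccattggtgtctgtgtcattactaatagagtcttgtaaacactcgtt
MIXL1, chr1:226223414-226223663, plus strand: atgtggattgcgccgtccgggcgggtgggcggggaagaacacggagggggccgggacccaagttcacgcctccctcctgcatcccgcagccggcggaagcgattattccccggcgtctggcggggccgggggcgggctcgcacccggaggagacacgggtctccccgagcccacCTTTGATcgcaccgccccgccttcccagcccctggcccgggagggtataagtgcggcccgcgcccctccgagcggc
SP5 has 3 matches, which begin at -148, -109 and -84 counted from the start site. DKK1 has 1 that begins at -95, CDX2 has 1 at -238 and MIXL1 has 1 at -76. Of all 35116 RefSeq promoters 5.94% hold at least 1 match, and 7 hold 3 or more. Of the WNT target list below, 14 genes have a promoter in that table and 4 of these hold a match: SP5, DKK1, CDX2 and SP8. A match describes the letters and is not evidence of binding.

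Among the 10333 protein-coding members 1833 were at least 2-fold higher at D1 (17.7%) and 1258 at least 2-fold lower (12.2%), with a median difference of 0.19. Rescaling the columns by the median ratio, which brings that median to 0.00, gave 1329 higher and 1576 lower, and dividing them by the protein-coding sum, which puts it at 0.30, gave 2158 and 1080. At 4-fold or more the counts were 296 higher and 338 lower, and at 8-fold or more 71 in either direction. For comparison, between D2 and D1 only 2.56% of 9922 protein-coding genes were 2-fold higher at D2 (254) and 2.38% 2-fold lower (236). Of the protein-coding members 25.1% had their highest value of the 11 time points at D1 and 21.7% in hESC. RLF, NOP9 and SAP130 lay just inside the threshold for higher, and HMGB3, SPHK2 and CCNE1 just outside it. On the lower side ACVR2B, CDKN1B and FBXW4 lay just inside, and FAM102A, TCIRG1 and COL6A2 just outside.

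The genes that head the increases were nearly silent in hESC. MIXL1, a homeobox factor of the streak, stood at 251 FPKM at D1 against 0.654 in hESC, a difference of 7.25 and the largest of all protein-coding members above 0 in both columns. NODAL, the ligand that patterns the streak, stood at 201 FPKM at D1 and 0.472 in hESC. SP5, a repressor induced by WNT, had 133 FPKM at D1 and 0.162 in hESC, and DKK1, a secreted blocker of the LRP co-receptors, had 239 and 1.13 FPKM. Their differences were 7.10 for NODAL, 6.85 for SP5 and 6.82 for DKK1. At D2 all 4 genes stood below their D1 level, at 115 (MIXL1), 21.6 (NODAL), 72.0 (SP5) and 101 FPKM (DKK1). Genes that define stem cells were present in both columns: POU5F1 had 720 FPKM at D1 and 1026 in hESC, LIN28A 653 and 708, SOX2 37.8 and 40.0, and NANOG 89.2 and 110. Of the markers of other lineages SOX17 (0.886 at D1, 0.248 in hESC), PAX6 (0.573, 0.987) and PTPRC (0.0773, 0.317) were under 1 FPKM in both columns, whereas KDR, THY1, COL1A1 and COL1A2, given below, were not.

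**Figure D1:**
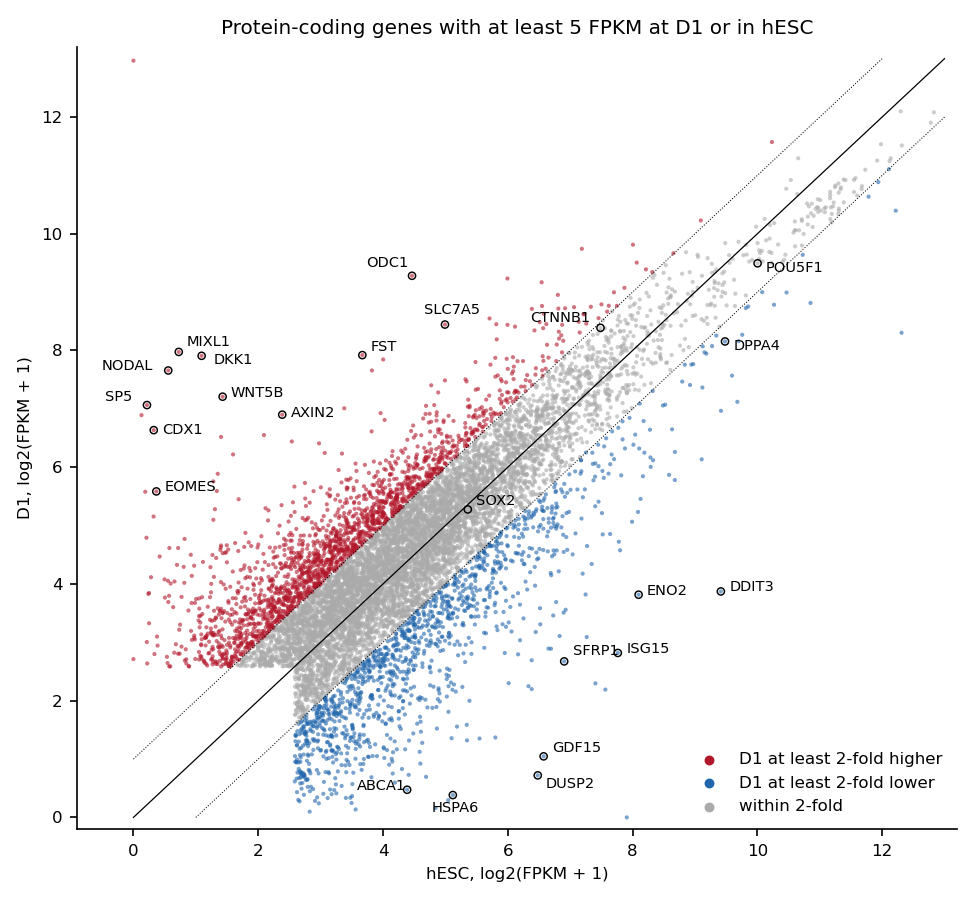
log2(FPKM + 1) at D1 (vertical axis) against hESC (horizontal axis) for the 10333 protein-coding members, each a point, with the diagonal solid and the 2-fold lines dotted. The 1833 red points above the upper line include MIXL1, NODAL, SP5 and DKK1 far to the left, and the 1258 blue points below the lower line include DDIT3, GDF15 and HSPA6.

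WNT target and feedback genes were mostly higher. Of 24 genes on the list 21 passed 5 FPKM. Of these 15 were 2-fold higher at D1 (71.4%) and 0 lower, where 17.7% of all protein-coding members were higher. Among the higher ones SP5, DKK1, AXIN2, NKD1, LEF1, CDX1 and CDX2 were below 5 FPKM in hESC. They passed only through D1, so the filter set their direction. The median difference of the 21 was 2.79, beside 0.19 over all protein-coding members. It was 1.87 with a pseudocount of 5, 4.53 with a floor of 20 FPKM and 2.28 over all 24 listed genes. AXIN2, the scaffold of the destruction complex and the most used readout of the pathway, stood at 118 FPKM at D1 and 4.22 in hESC. NKD1, which binds Dishevelled, had 90.7 FPKM at D1 and 1.65 in hESC. LEF1, a DNA partner of beta-catenin, had 58.2 and 1.55 FPKM, and TCF7, another, had 17.5 at D1 and 7.17 in hESC. The caudal factors CDX1 (98.4 FPKM at D1, 0.253 in hESC) and CDX2 (34.6 and 0.251), which specify posterior identity, moved with them. CCND1, the G1 cyclin, had 111 FPKM at D1 and 15.3 in hESC.

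Not every textbook target took part. MYC stood at 24.6 FPKM at D1 and 25.3 in hESC, and SOX4 at 92.1 and 91.9 FPKM. The ubiquitin ligases RNF43 (22.2 at D1, 15.3 in hESC) and ZNRF3 (14.1, 10.0), which remove FZD receptors, stayed within 2-fold, as did FZD7 (31.2, 34.6) and NKD2 (3.59, 5.68). LGR5, the R-spondin receptor, was under 5 FPKM in both columns (1.24 at D1, 0.152 in hESC), as were CDX4 and MSX2. D1 held the highest of the 11 time points for 13 of the 21 genes, against 25.1% of all protein-coding members. By D2 AXIN2 stood at 25.01 FPKM, NKD1 at 21.0 and CDX1 at 10.4, while LEF1 stood at 32.6 at D2 and 66.1 at D3.

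Few ligands of the pathway passed the floor of 5 FPKM. WNT5B, a ligand mostly linked to beta-catenin-independent signalling, had 147 FPKM at D1 and 1.69 in hESC, a difference of 5.78. WNT3, the ligand that starts the streak in the mouse, had 10.7 and 0.842 FPKM. WLS, the carrier that takes WNT proteins to the cell surface, had 92.7 FPKM at D1 and 3.26 in hESC. PORCN, which adds the lipid to WNT proteins and is the enzyme IWP compounds block, had 5.09 and 7.96 FPKM. The other 21 of the 25 listed genes stayed under 5 FPKM in both columns. Below that floor WNT3A (4.04 at D1, 0.304 in hESC), WNT8A (3.85, 0.297), the R-spondin RSPO3 (2.77, 0.236) and WNT10B (4.95, 0.982) also differed by more than 2-fold. Their differences were 1.95, 1.90, 1.61 and 1.59, while the median over all 25 was -0.09.

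Receptors and cytoplasmic parts mostly stayed in place: of 20 that passed, 3 were higher, 3 lower and 14 within 2-fold, with a median of -0.04, or 0.06 after dividing by the protein-coding sum. FZD10 (12.9 FPKM at D1, 0.486 in hESC), ROR2 (9.66, 1.66), a receptor of WNT5 ligands, and RYK (80.9, 34.2), an atypical WNT receptor, were higher. FZD5 (4.10 at D1, 16.5 in hESC) and the TCF proteins TCF7L2 (2.75, 16.0) and TCF7L1 (1.81, 7.36), were lower. Beta-catenin itself, CTNNB1, had 334 FPKM at D1 and 178 in hESC, a difference of 0.90. The drug's targets GSK3A (21.7, 15.6) and GSK3B (35.5, 56.1) were within 2-fold, as were APC, AXIN1, LRP5, LRP6 and the 3 Dishevelled genes. Within the TCF family LEF1 and TCF7 were thus higher and TCF7L1 and TCF7L2 lower.

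Secreted and membrane antagonists changed in both directions, 6 higher (54.5%) and 2 lower (18.2%) of 11 that passed. Of all protein-coding members 17.7% were higher and 12.2% lower. The 6 higher ones were below 5 FPKM in hESC and passed only through D1, so the filter set their direction. Over all 17 listed genes the median difference was 0.07. Beside DKK1, DKK4 had 46.8 FPKM at D1 and 0.140 in hESC. APCDD1, which binds WNT and LRP at the membrane, had 37.9 and 1.47 FPKM, and NOTUM, which strips the lipid from WNT proteins, had 9.11 at D1 and 1.10 in hESC. SHISA3 (5.99, 0.671) and CER1 (7.68, 1.26) were also higher. SFRP1, a decoy for WNT ligands, was the opposite case, with 5.38 FPKM at D1 and 119 in hESC, a difference of -4.23, and it stood at 37.6 at D2. SHISA2 had 0.685 FPKM at D1 and 16.8 in hESC. SFRP2 stayed within 2-fold (47.1, 62.5).

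Of 11 primitive streak genes that passed 10 were higher and 0 lower, where 17.7% of all protein-coding members were higher. These 10 were below 5 FPKM in hESC and passed only through D1, so their direction was set by the filter. The median difference of the 11 was 3.59. It came to 1.95 with a pseudocount of 5, to 6.76 with a floor of 20 FPKM and to 2.04 over all listed genes with no filter. T (brachyury), the mesoderm factor of the streak, had 118 FPKM at D1 and 0.0936 in hESC. EOMES, the T-box factor of mesendoderm, had 47.0 and 0.290 FPKM, and EVX1, a posterior streak factor, had 23.5 at D1 and 0.491 in hESC. FOXA2 (13.22, 0.180), a factor of the anterior streak and endoderm, and APLNR (6.70, 0.308), the apelin receptor of early mesoderm, were also higher. SNAI1, a repressor of E-cadherin, was the member that was not higher (4.36 at D1, 8.78 in hESC). The other 11 listed genes stayed under 5 FPKM, among them GSC (3.79 at D1, 0.278 in hESC), MSGN1 (4.92, 0.310), GATA4 (3.28, 0.676), GATA6 (2.28, 0.147) and MESP1 (0.733, 0.341). In the summed FPKM of the 11 genes D1 reached 700 against 12.3 in hESC, with 467 at D2 and 122 at D3. All 22 listed genes summed to 719 FPKM at D1 and 20.6 in hESC. APLNR stood at 180 FPKM and EOMES at 63.9 at D2, above their D1 values.

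Of the NODAL pathway 16 genes passed, 7 were higher (43.8%, beside 17.7% of all protein-coding members) and 1 lower. Of these 7, NODAL, LEFTY1, SMAD7, GDF3 and CER1 were below 5 FPKM in hESC and passed only through D1. The filter thus set their direction. The median difference over all 20 listed genes was 0.45. FST, follistatin, a binder of activin, had 241 FPKM at D1 and 11.7 in hESC. LEFTY1 (11.9, 0.473), an antagonist induced by NODAL, and SMAD7 (12.0, 2.35), its inhibitor inside the cell, were higher. GDF3 and CER1 were higher as well. The co-receptor TDGF1 (238, 346), SMAD2 (79.7, 71.0), SMAD4 (72.9, 81.3) and FOXH1 (62.5, 51.4) were within 2-fold, and the receptor ACVR2B (16.8, 34.5) lay just past the threshold on the lower side. INHBA, which encodes activin A, was near 0 in both columns (0.0694 at D1, 0.570 in hESC).

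Several FGF ligands were higher, and some FGF receptors were lower. The ligands FGF8 (15.9 FPKM at D1, 0.412 in hESC), FGF17 (12.6, 0.419), FGF19 (16.4, 1.45), FGF4 (7.03, 0.160) and FGF18 (6.07, 0.574) were higher, as was FGF13, which stays inside cells. FGFR1 (114, 247), FGFR2 (7.44, 40.5) and FGFR3 (4.65, 19.1) were lower, while FGFR4 (23.7, 20.2) was within 2-fold. FGF8, FGF17, FGF19, FGF4 and FGF18 passed 5 FPKM only through D1, and FGFR3 only through hESC. The filter thus set their direction. Feedback inhibitors of ERK differed among themselves, with SPRY2 (35.8, 10.9) and IL17RD (52.9, 14.9) higher and SPRY4, SPRED1, DUSP4, DUSP5 and DUSP6 within 2-fold. In all 23 genes passed, 8 were higher (34.8%) and 4 lower (17.4%), beside 17.7% and 12.2% of all protein-coding members. Of 14 BMP genes 7 were higher and 0 lower: BMP2 (15.4 at D1, 1.64 in hESC), MSX1 (9.03, 0.190), ID3 (133, 27.3), SMAD1 (13.6, 5.98), BAMBI (19.8, 8.02), and FST and SMAD7 as above. BMP2, MSX1 and SMAD7 passed only through D1, so the filter set their direction. ID1, a direct BMP target, had 37.0 FPKM at D1 and 60.6 in hESC, and 205 at D2, and BMP4 stayed under 5 FPKM.

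**Figure D2:**
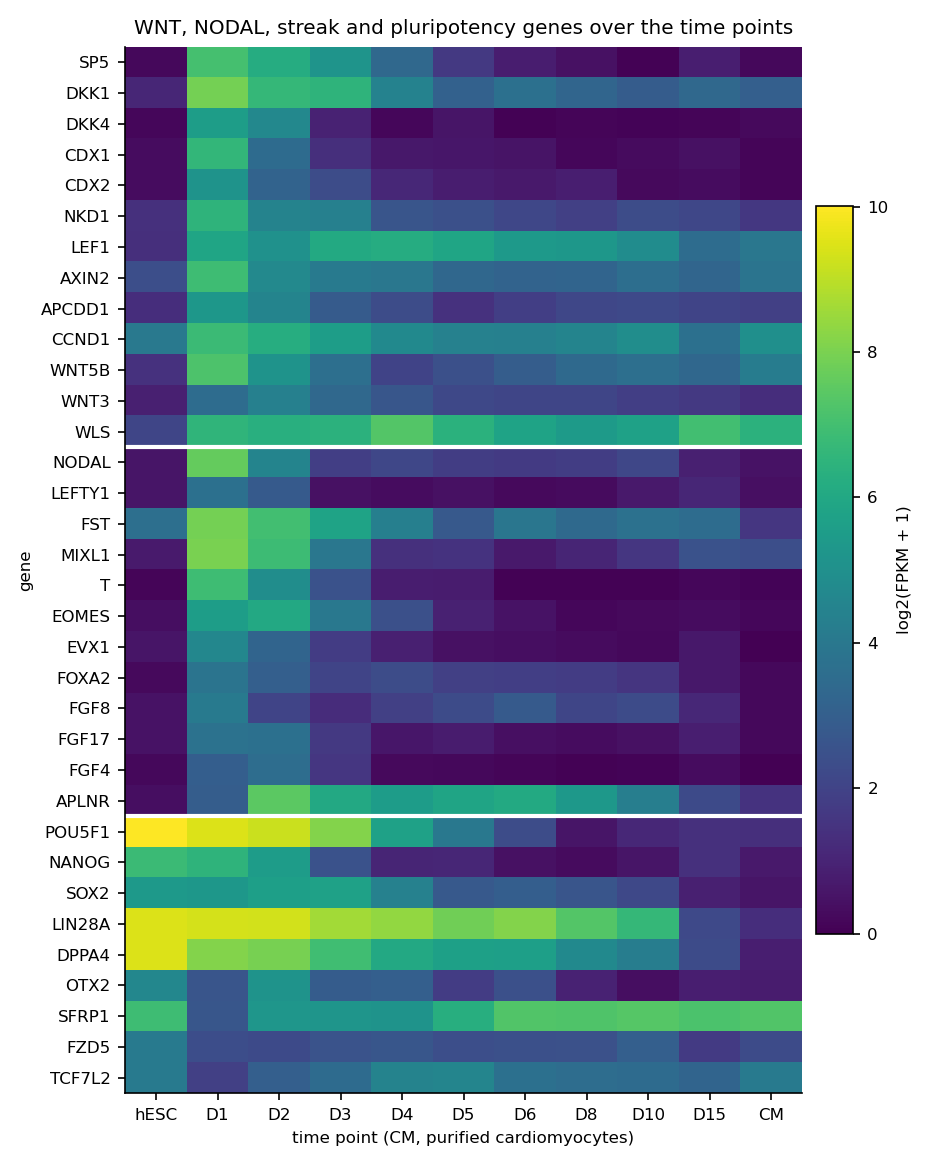
Heat map of log2(FPKM + 1), 1 row per gene and 1 column per time point from hESC to purified cardiomyocytes, with WNT genes on top, NODAL and streak genes in the middle and genes of the hESC state at the bottom. CDX1 and NODAL are bright at D1 and dark by D4, while POU5F1 and LIN28A are bright from hESC through D2.

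Pluripotency genes split rather than falling together. Of 24 that passed 7 were higher (29.2%), 6 lower (25%) and 11 within 2-fold, beside 17.7% and 12.2% of all protein-coding members. The median of -0.10 came to 0.01 after dividing by the protein-coding sum. OTX2 (5.24 FPKM at D1, 23.8 in hESC), a factor of the primed epiblast and anterior brain, PRDM14 (1.82, 9.67), FOXD3 (0.308, 5.65), SALL2 (23.3, 82.8), DPPA2 (4.52, 16.4) and DPPA4 (284, 714) were lower. ZFP42 (104, 21.4), known as REX1, KLF5 (11.8, 3.09), SALL1 (23.9, 7.81), NR5A2 (5.16, 1.41), GDF3 (6.05, 1.32) and L1TD1 (177, 80.8) were among the higher ones. NANOG stood at 45.5 at D2 and 4.81 at D3, and POU5F1 at 588 and 285. OTX2 stood at 33.8 FPKM at D2. DNMT3B, the de novo DNA methyltransferase of stem cells, had 128 FPKM at D1 and 126 in hESC.

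Of the other lineages few genes passed the filter. Of 14 definitive endoderm markers 3 passed, and all 3 were higher. They summed to 28.9 FPKM at D1 and 2.81 in hESC, so they passed only through D1 and the filter set their direction. The median difference over all 14 was 0.81. CDX2 was the amnion and trophoblast marker that was higher, and GATA3 (0.258 at D1, 0.551 in hESC), TFAP2A (0.250, 0.615) and CGA (0.0391, 0.0629) stayed near 0, while KRT7, IGFBP3 and GABRP were lower. Of 15 neural markers 3 passed, with SOX1 (0.0319, 0.0938) and SIX3 (0.00836, 0.121) near 0. Of 21 genes of paraxial and cardiac mesoderm 5 passed. Among these KDR, the VEGF receptor, had 8.92 FPKM at D1 and 59.4 in hESC, and DLL1, the NOTCH ligand, had 2.03 and 15.5 FPKM. Fibroblast, endothelial and blood markers gave COL1A2 higher (45.4, 16.0) and COL1A1 (6.30, 30.2) and THY1 (39.3, 168) lower, with LUM, CDH5, PTPRC and HBE1 under 1 FPKM.

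Genes of junctions, matrix and guidance changed in part. E-cadherin, CDH1, had 69.6 FPKM at D1 and 88.6 in hESC, and stood at 23.9 at D2, while N-cadherin, CDH2, had 53.9 at D1 and 9.89 in hESC. ZEB2 (18.9, 0.963), a repressor of epithelial genes, and MMP2 (48.3, 7.86), a matrix protease, were also higher. Of 20 genes of the epithelial-mesenchymal transition 5 were higher and 0 lower. That is 25% higher, near the 17.7% of all protein-coding members. VIM (162, 98.2), EPCAM (196, 120) and ESRP1 (65.5, 89.8) were within 2-fold. Of 18 integrin, laminin and matrix genes 6 were higher, led by the hyaluronan synthase HAS2 (15.2, 0.760) and the integrin ITGB5 (129, 40.8), and 2 lower, LAMA5 (21.98, 69.8) and ITGA5 (11.9, 27.8). Among guidance genes SEMA3C (21.2, 0.338), EPHA4 (30.98, 4.07) and EFNB2 (19.7, 3.31) were higher, and EFNA3 (3.75, 32.1) and EFNA1 (1.12, 8.48) lower, for 4 each way of 16.

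**Figure D3:**
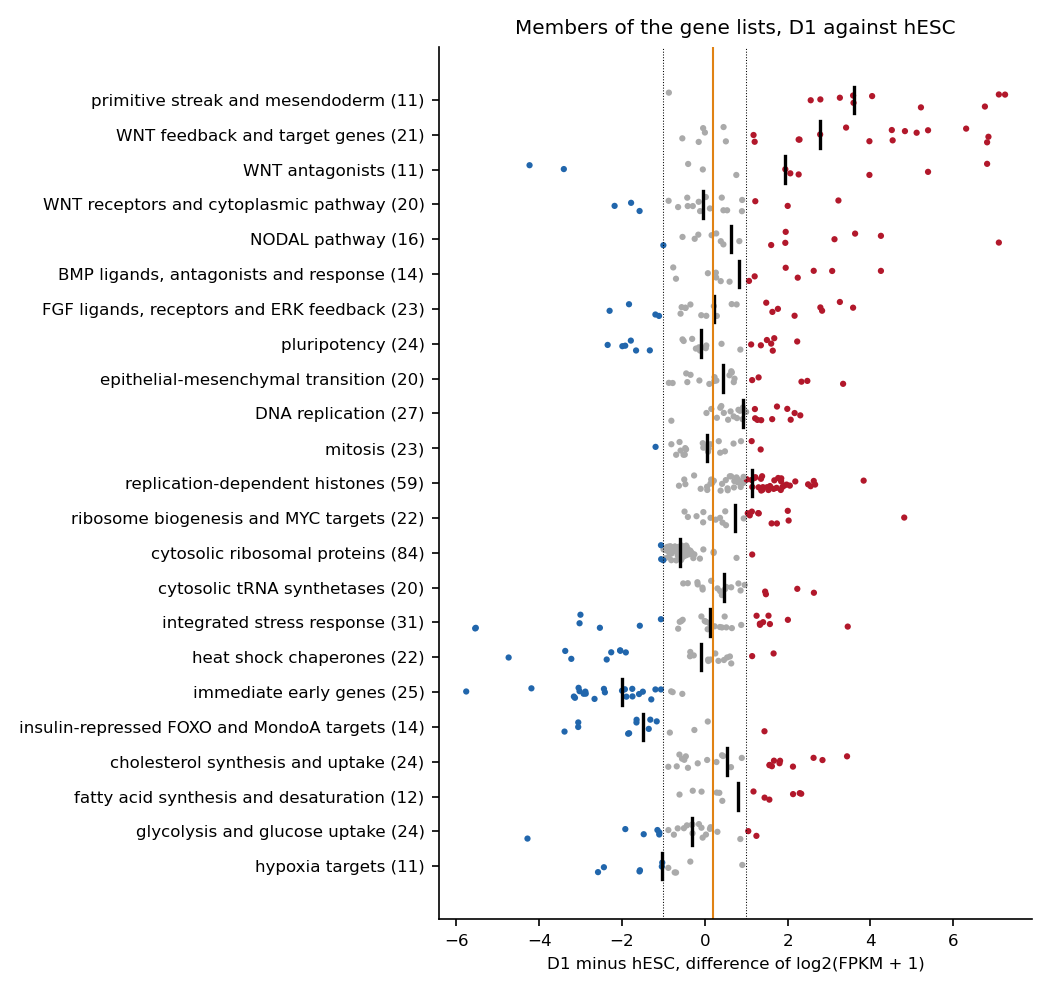
D1 minus hESC in log2(FPKM + 1) for each member of 23 gene lists with at least 5 FPKM in 1 column (points, number in brackets), with black bars at list medians, dotted lines at 2-fold and an orange line at 0.19, the median of all protein-coding members. Streak and WNT target lists lie to the right, and immediate early genes and FOXO targets to the left.

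Among the 25 largest protein-coding decreases were genes of stress and immediate early response (DUSP2, DDIT3, GDF15, HSPA6 and MAFF) and many on no such list. Immediate early genes are transcription factors and signal inhibitors that are switched on within minutes of growth factors, stress or handling. Of 25 that passed 22 were lower at D1 and 0 higher, with a median of -1.998, where 12.2% of all protein-coding members were lower. DUSP2, a phosphatase of ERK, had 0.647 FPKM at D1 and 88.3 in hESC, a difference of -5.76, the largest decrease of the protein-coding members above 0 in both columns. MAFF (3.59 at D1, 82.5 in hESC), GADD45B (7.20, 72.3), NR4A1 (6.05, 60.9), JUN (11.2, 64.8), JUNB (3.05, 24.6), FOS (28.8, 99.2) and EGR1 (5.07, 17.3) were lower. RHOB, KLF10 and FOSL2 stayed within 2-fold. The summed FPKM of the 25 genes was 279 at D1 against 1257 in hESC, with 336 at D2, 508 at D3 and 1926 in purified cardiomyocytes.

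The integrated stress response, in which phosphorylated eIF2 favours translation of ATF4, gave a split list, 8 higher (25.8%) and 7 lower (22.6%) of 31. Of all protein-coding members 17.7% were higher and 12.2% lower. The list median was 0.13, or -0.06 after rescaling by the median ratio. DDIT3, the death-promoting factor also called CHOP, had 13.6 FPKM at D1 and 682 in hESC. GDF15, a secreted stress hormone, had 1.06 and 94.3 FPKM. ATF3 (17.1, 146), PPP1R15A (19.3, 162), which restores eIF2, DDIT4 (21.7, 131), VLDLR (17.2, 52.9) and CHAC1 (21.1, 44.95) were lower as well. DDIT3 stood at 12.7 FPKM at D2 and 19.3 at D3, and GDF15 at 0.393 and 0.272. ATF4 itself had 370 FPKM at D1 and 550 in hESC.

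The 8 members higher at D1 included 4 amino acid transporters. SLC7A5, the transporter of large neutral amino acids, had 347 FPKM at D1 and 30.8 in hESC, and SLC7A1 (37.0, 12.1), SLC7A11 (53.7, 20.7) and SLC1A5 (150, 59.0) carry cationic amino acids, cystine and glutamine. PSPH (59.6, 14.1) and PSAT1 (393, 147) are enzymes of serine synthesis, and ALDH1L2 (6.36, 2.09) is one of folate metabolism. ATF5 (30.9, 9.72) was the remaining gene. ASNS (193, 145), PHGDH (250, 230), MTHFD2 (296, 230) and TRIB3 (28.4, 44.8) were within 2-fold. Of 20 cytosolic tRNA synthetases 4 were higher and 0 lower, a share near the 17.7% of all protein-coding members. They were WARS (349, 55.3), both subunits of the phenylalanine enzyme, FARSA (69.5, 24.4) and FARSB (49.3, 9.69), and HARS (55.9, 19.7).

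Cytosolic chaperones changed in both directions, and promoters of 3 of them are shown because genes that were lower (HSPA6, HSPA1A) and 1 that was within 2-fold (HSPA8) both hold heat shock letters. The search was for GAANNTTC and TTCNNGAA, the paired units of the heat shock element, each its own reverse complement, which may overlap. CHAC1 is added for the C/EBP-ATF letters TGATGNAA (reverse TTNCATCA) bound by ATF4. Source, direction and window are as above.
HSPA6, chr1:161524290-161524539, plus strand: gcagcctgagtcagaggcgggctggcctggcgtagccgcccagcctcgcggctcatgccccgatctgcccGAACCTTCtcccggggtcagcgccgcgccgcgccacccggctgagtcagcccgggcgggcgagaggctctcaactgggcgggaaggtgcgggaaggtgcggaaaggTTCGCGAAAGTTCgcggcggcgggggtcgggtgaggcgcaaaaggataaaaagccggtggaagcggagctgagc
HSPA1A, chr6:31815293-31815542, plus strand: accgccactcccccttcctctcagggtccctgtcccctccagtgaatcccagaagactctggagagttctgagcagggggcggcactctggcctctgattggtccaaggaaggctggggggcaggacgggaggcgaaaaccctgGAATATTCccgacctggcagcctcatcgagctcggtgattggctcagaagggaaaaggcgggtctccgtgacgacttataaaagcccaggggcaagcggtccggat
HSPA8, chr11:123062137-123062386, minus strand: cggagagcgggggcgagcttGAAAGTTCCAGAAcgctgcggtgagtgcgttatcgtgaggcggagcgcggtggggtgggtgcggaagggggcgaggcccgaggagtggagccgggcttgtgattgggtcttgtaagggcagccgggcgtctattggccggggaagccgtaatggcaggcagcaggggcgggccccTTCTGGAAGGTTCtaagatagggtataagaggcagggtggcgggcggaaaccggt
CHAC1, chr15:40953221-40953470, plus strand: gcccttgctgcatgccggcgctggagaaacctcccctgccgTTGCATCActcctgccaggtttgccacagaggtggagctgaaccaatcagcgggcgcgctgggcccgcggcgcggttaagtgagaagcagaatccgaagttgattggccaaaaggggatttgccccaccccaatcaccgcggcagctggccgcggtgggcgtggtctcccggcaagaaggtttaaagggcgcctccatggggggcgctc
HSPA6, an HSP70 that is silent without stress, has 3 matches and had 0.304 FPKM at D1 and 33.7 in hESC. HSPA1A, the inducible HSP70, has 1 match and had 10.8 and 121 FPKM, and its near-identical copy HSPA1B had 22.9 and 222, so reads may be shared between them. HSPA8, the constitutive HSC70, has 4 matches and had 2509 FPKM at D1 and 1611 in hESC. Of all promoters 11.6% hold a heat shock match and 3.14% a C/EBP-ATF match. Of 22 listed chaperone genes with a promoter 10 hold a heat shock match, and of 28 stress response genes 4 hold a C/EBP-ATF match, ATF3, CHAC1, ASNS and FGF21. ATF3 and CHAC1 were lower and ASNS was within 2-fold.

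Over the whole heat shock list 2 genes were higher and 8 lower of 22 (36.4%, beside 12.2% of all protein-coding members). Besides HSPA6, HSPA1A and HSPA1B the lower ones were HSP90AA1 (449 FPKM at D1, 1848 in hESC), the inducible HSP90, DNAJB1 (41.5, 174), HSPB1 (23.3, 90.0), HSPB8 (3.72, 21.6) and HSPA2 (6.77, 39.1). The constitutive HSP90AB1 was within 2-fold (1463 at D1, 1874 in hESC), and so were HSPD1 and HSPE1 of mitochondria. DNAJA1 (225, 70.3) and AHSA1 (191, 86.0), a co-chaperone of HSP90, were higher. Chaperones of the endoplasmic reticulum were mostly alike, with HSPA5 at 96.6 and 124 FPKM, and 2 higher (CRELD2, DNAJB11) and 2 lower (HERPUD1, DNAJB9) of 18. Of 18 p53 targets 7 were lower, among them PMAIP1 (68.5, 321), BBC3 (3.01, 15.1) and CCNG1 (269, 618), and 3 higher, MDM2 (65.2, 27.9), TRIAP1 (47.3, 20.5) and C12orf5 (18.4, 2.62), while CDKN1A stayed under 5 FPKM in both columns (3.84, 4.00).

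**Figure D4:**
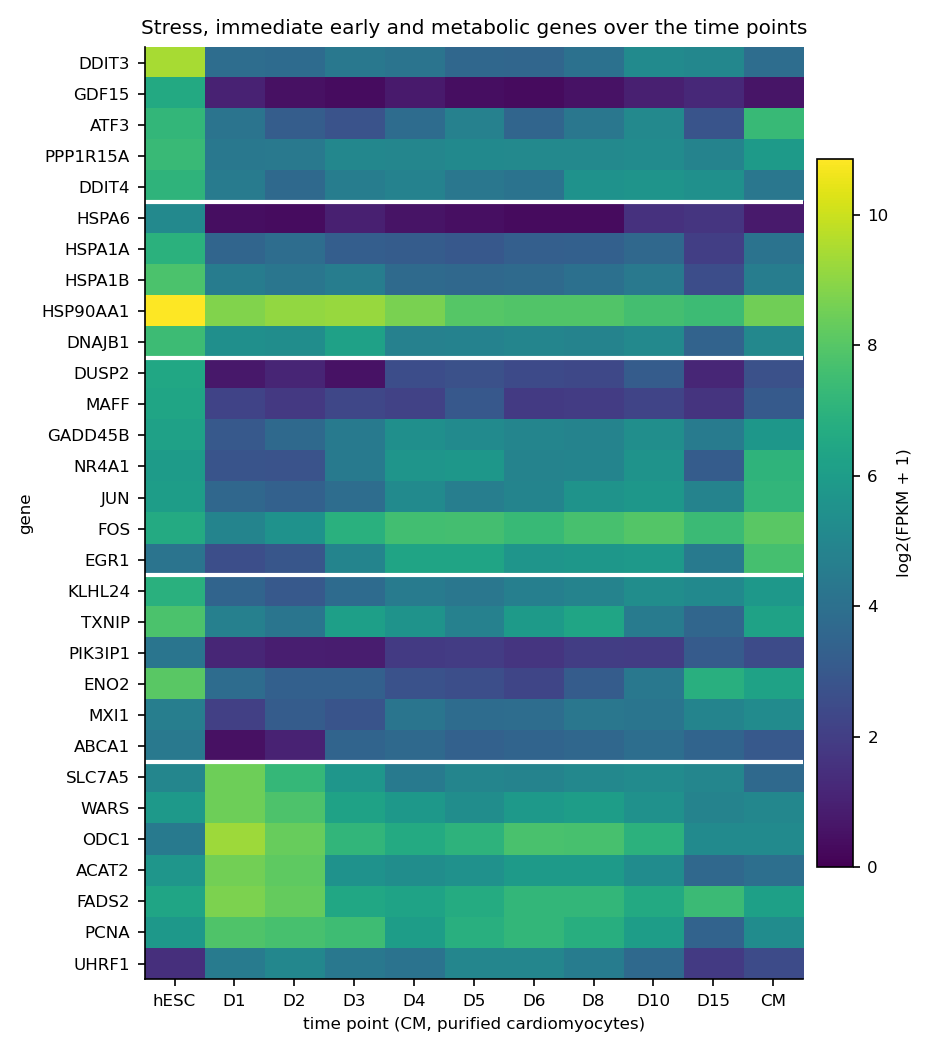
Heat map of log2(FPKM + 1) over the 11 time points for stress response, heat shock, immediate early and FOXO or energy genes, and in the lowest block genes higher at D1. DDIT3, GDF15, HSPA6 and DUSP2 are brighter in the hESC column than at D1 to D3, and FOS, EGR1 and ATF3 are bright again in later columns.

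Targets of FOXO and MondoA were mostly lower. Insulin signalling keeps FOXO factors out of the nucleus and so represses their targets. The D1 medium lacked insulin. The part of insulin in these values was not tested. Of 14 targets that passed 10 were lower and 1 higher, with a median of -1.50, where 12.2% of all protein-coding members were lower. KLHL24 (10.4 FPKM at D1, 118 in hESC), TXNIP (25.4, 219), which blocks glucose uptake, PIK3IP1 (1.24, 17.7), an inhibitor of PI3-kinase, CCNG2 (5.99, 24.2), INSR (7.23, 24.8) and IRS2 (3.12, 9.25) were lower. CITED2 (23.1, 7.86) was the exception. Of 11 hypoxia targets 6 were lower (54.5%) and 0 higher, including MXI1 (3.13, 23.6), NDRG1 (2.05, 15.5) and ADM (12.6, 39.3).

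Of 24 glycolytic genes 2 were higher (8.33%), 6 lower (25%) and 16 within 2-fold, beside 17.7% and 12.2% of all protein-coding members. ENO2, the neuronal enolase, stood out with 13.1 FPKM at D1 and 273 in hESC, whereas ENO1, the common form, had 1222 and 1109 FPKM. PFKM (22.3, 86.9), TPI1 (509, 1415), HK1 (42.1, 94.1), ALDOC (36.8, 80.1) and the glucose transporter SLC2A3 (431, 923) were lower, and SLC2A1 (146, 69.9) and PDK1 (72.7, 30.1), which closes pyruvate entry to the citric acid cycle, were higher. Of 13 NRF2 targets 3 were higher, with NQO1 (67.3, 17.3) leading, and 4 lower, with HMOX1, heme oxygenase (6.49, 48.3), leading and the ferritin genes FTH1 (176, 443) and FTL (796, 1694) among them. Metallothionein and zinc genes gave 3 higher and 0 lower of 6, at low levels such as MT1H (10.5, 2.08). The 6 summed to 72.2 FPKM at D1 and 79.4 in hESC, and the median over all 11 listed was -0.02.

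Of 24 genes of cholesterol synthesis and uptake 10 were higher, 0 lower and 14 within 2-fold, where 17.7% of all protein-coding members were higher. ACAT2 (374 FPKM at D1, 51.3 in hESC), NSDHL (58.8, 12.7), LSS (161, 45.01), CYP51A1 (422, 120) and FDPS (346, 116) are enzymes along the route and were higher. Genes used as readouts of SREBP2, such as HMGCS1 (446, 612) and INSIG1 (98.3, 182), were within 2-fold. For fatty acids 6 of 12 were higher, 0 lower and 6 within 2-fold. The higher ones were FADS2 (419, 82.6), ACLY (339, 68.4), FADS1 (176, 39.5), FASN (199, 66.9), ELOVL6 (70.5, 25.3) and SCD (670, 296). D1 held the highest of the 11 time points for 15 of the 24 cholesterol genes, and the list summed to 5032 FPKM at D1 against 3818 in hESC, with 3318 at D2 and 954 at D3. ABCA1, the cholesterol exporter driven by LXR, had 0.389 FPKM at D1 and 19.9 in hESC, and MYLIP, another LXR target, had 4.10 and 12.6. They were the 2 lower genes of 5 LXR targets that passed. The other 3 were within 2-fold, and the median of the 5 was 0.41.

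Of 27 replication genes 10 were higher, 0 lower and 17 within 2-fold, with a median of 0.91, where 17.7% of all protein-coding members were higher. The sliding clamp PCNA (234 FPKM at D1, 54.7 in hESC), RRM2 (120, 25.9), which makes deoxynucleotides, CDC6 (77.0, 18.6), the helicase parts MCM4 (210, 67.4), MCM2 (92.1, 39.1), CDC45 (24.7, 9.01), GINS1, GINS2 and GINS3, and TK1 (36.8, 14.7) made up these 10. CDT1, the licensing factor, had 22.3 FPKM at D1 and 39.8 in hESC. Mitotic genes gave 2 higher and 1 lower of 23 with a median of 0.05, or -0.13 after rescaling by the median ratio, and MKI67 had 18.3 and 13.9 FPKM. Of 59 replication-dependent histone genes 32 were higher and 0 lower, with a median of 1.13. HIST2H3D (201 at D1, 13.1 in hESC), HIST1H1B (856, 145), the linker histone, and HIST1H4A (168, 26.3) are examples, and the many near-identical copies make single histone values uncertain. UHRF1, which brings DNMT1 to newly made DNA, had 22.1 FPKM at D1 and 1.77 in hESC, and DNMT1 had 86.5 and 58.1. CDKN1C, a CDK inhibitor, was lower (9.13, 63.6).

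ODC1, the rate-limiting enzyme of polyamine synthesis, had 621 FPKM at D1 and 21.1 in hESC, a difference of 4.82. It led the list of ribosome biogenesis and MYC targets, of which 10 were higher (45.5%) and 0 lower of 22. Of all protein-coding members 17.7% were higher and 12.2% lower. Among the 10 were the polymerase I subunits POLR1A (30.2, 6.68) and POLR1B (38.03, 10.7) and the nucleolar proteins NOP56 (442, 180) and NOLC1 (120, 48.2). MYC (24.6, 25.3) and MYCN (6.89, 7.08) were level. Cytosolic ribosomal proteins did not share this change. Of 84 that passed 3 were lower and 1 higher, their median was -0.60, and 78 had their highest value of the 11 time points in hESC. Of all protein-coding members 21.7% had their highest value there. RPL24 had 1890 FPKM at D1 and 3923 in hESC, and RPL28 had 97.0 and 203. Genes of mitochondrial DNA differed among themselves, with MT-CO3 (3043, 1203), MT-ND3 (510, 207) and MT-ATP8 (1198, 545) higher and MT-ND6 (215, 457) lower. Nuclear genes of the respiratory chain were within 2-fold apart from IDH3A (44.3, 12.9), TFAM (116, 40.5), which packs mitochondrial DNA, and CYCS (274, 109), 3 of 23.

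Smaller lists changed in both directions. Few members passed in each, so their counts are not read as results. In the NOTCH list HES6 was higher (75.6 FPKM at D1, 24.6 in hESC) and DLL1 and LFNG (1.89, 6.67) lower of 11. For retinoic acid STRA6, the vitamin A importer, was higher (22.2, 4.76) and CRABP1 (32.0, 105), DHRS3 and RARG lower of 6. Of 13 YAP and TEAD genes AMOTL1 (23.7, 3.55) and AMOTL2 (64.2, 16.5) were higher, and CYR61 (8.10, 65.7), LATS2 (3.14, 18.1), AXL (3.89, 19.6) and CTGF (8.32, 21.8) lower; CYR61 and CTGF are also on the immediate early list. Of 14 chemokine and inflammatory genes 4 passed, and ICAM1 (2.53, 18.1) and NFKB2 (9.17, 28.5) were lower.

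Several of the largest single changes were on no pathway list. Higher at D1 were SMYD2 (73.5 FPKM, 2.03 in hESC), a lysine methyltransferase, GAD1 (53.1, 1.43), which makes GABA, DACT1 (47.3, 1.53), which binds Dishevelled, TTC29 (26.7, 0.155), GBX2 (26.3, 0.765), a homeobox factor, and SLC39A8 (85.9, 4.81), a metal importer. Lower at D1 were GRB7 (3.56, 188), an adaptor of receptor kinases, ELF3 (3.91, 168), an epithelial ETS factor, ACTN3 (0.227, 32.0), HES4 (1.58, 54.7), RGS3 (7.52, 153), PROCR (3.75, 79.5), the receptor of protein C, MXD1 (1.496, 39.7), a partner of MAX that opposes MYC, CREBRF (2.00, 39.6) and PIM3 (7.62, 113). At D2 the lower genes were still low, such as GRB7 at 2.97, ELF3 at 4.02 and MXD1 at 1.20 FPKM. SEPN1 is among the 25 largest decreases (315, 5082), but its column values jump, with 16.3 at D2 and 2216 in cardiomyocytes.

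EEF1A1, PAICS and PRAC were listed at exactly 0 in 1 column, a value that may stand for an estimate that failed, so they are given without a fold. EEF1A1, the elongation factor and the most abundant protein-coding gene at D1 with 8000 FPKM, was listed at 0 in hESC and at 9740 at D2. PAICS, a purine enzyme, was listed at 0 at D1, with 239 FPKM in hESC and 313 at D2. PRAC was listed at 0 in hESC and had 5.55 FPKM at D1. In 20 protein-coding members the value turned back by 3 log2 units or more at least 2 times over the time points, JAG1 among the list members.

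Small RNAs went mostly the other way. Of the 243 members 156 were at least 2-fold lower at D1 (64.2%) and 49 at least 2-fold higher (20.2%), with a median of -1.999. Without the entries listed at 0 in a column 150 remain, of which 102 were lower and 10 higher, with a median of -1.77. D1 had the lowest small RNA share of summed FPKM of all time points, 16.7%. Every later share was higher, from 29.8% at D2 to 50.3% at D5, beside 49.5% in hESC. The low values were thus particular to the D1 column and do not describe a lasting change from hESC. How far this low share sets the counts was not tested. RMRP, the RNA of the RNase MRP that cuts ribosomal RNA precursors, had 10836 FPKM at D1 and 111296 in hESC. RN7SK, which holds the elongation factor P-TEFb in check, had 6041 and 58038 FPKM, and RN7SL1, the RNA of the signal recognition particle, had 23916 and 74763. SNORD3A, the U3 RNA of early ribosomal RNA processing, had 2142 FPKM at D1 and 42461 in hESC, and SNORD15B had 3069 and 41415.

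By family, C/D snoRNAs, which guide 2′-O-methylation, had 15 lower and 1 higher of 17. H/ACA snoRNAs, which guide pseudouridine, had 51 lower and 7 higher of 67, and 35 lower and 0 higher of the 44 above 0 in both columns, with SNORA73B at 2121 FPKM at D1 and 25380 in hESC. The scaRNAs of Cajal bodies had 15 lower and 0 higher of 16. Spliceosomal and U RNAs, many of them pseudogene copies, had 35 lower and 26 higher of 73. RNU4-2 (1092 at D1, 12053 in hESC) and RNU2-2P (1354, 12990) were lower, and the U1 variants RNVU1-13 (265, 17.0) and RNVU1-6 (178, 43.4) were higher. Of 17 microRNA genes 11 were listed at 0 in a column, and MIR302B, of the cluster typical of pluripotent cells, had 1126 FPKM at D1, 2054 in hESC and 2370 at D2. The other 8 listed genes of this and a related cluster, MIR372 and MIR367 among them, were listed at 0 at D1 and in hESC, so MIR302B does not stand for them. The 67 H/ACA members summed to 11321 FPKM at D1 against 102631 in hESC, with 27318 at D2 and 23002 at D3.

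**Figure D5:**
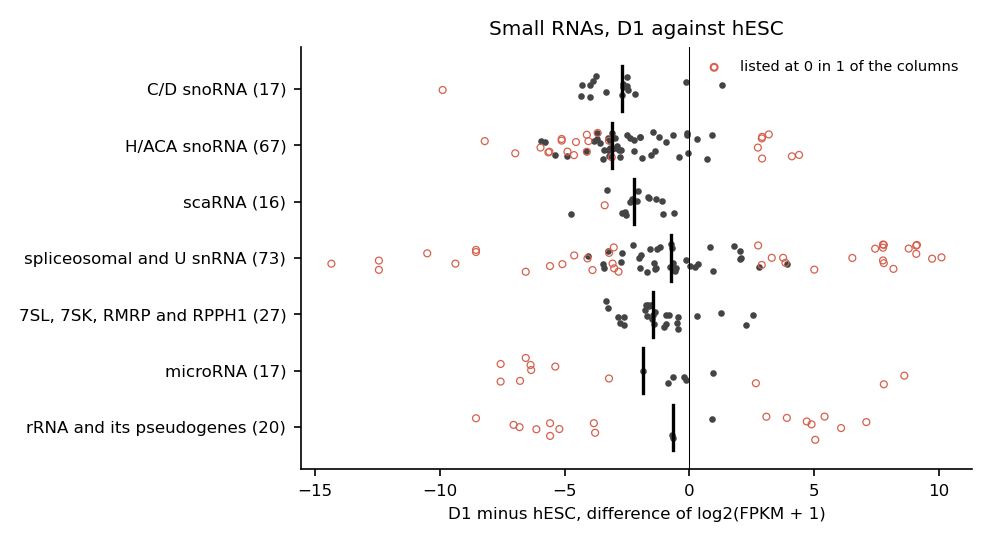
D1 minus hESC in log2(FPKM + 1) for each small RNA member by family (points, number in brackets), with black bars at family medians and open red circles for entries listed at 0 in 1 column. C/D, H/ACA and scaRNA families lie left of 0, and the far points of the U RNA, microRNA and rRNA rows are open circles.

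Host genes of snoRNAs lay with the small RNAs. Of 13 host and related noncoding genes 8 were lower and 0 higher, with a median of -1.83. Over all 245 other noncoding members 52 were lower and 57 higher. SNHG3 (1915 FPKM at D1, 17863 in hESC), SNHG7 (2138, 20061), SNHG8 (854, 7232) and SNHG12 (77.0, 1173) were lower, and SNHG5, SNHG6, SNHG9 and SNHG16 were within 2-fold, as was GAS5 (817, 1526). Small RNAs lie inside the introns or exons of such genes, and whether their reads entered the host values was not tested. MALAT1, a nuclear noncoding RNA, had 109 FPKM at D1 and 1253 in hESC. Noncoding genes higher at D1 included HOTAIRM1 (32.9, 2.74), EVX1-AS (16.2, 0.348), which lies beside EVX1, and AC022532.1 (78.9, 1.08).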

How the data were processed

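RNA-seq of H7 cells was analysed from the time-course table, in which the authors deposited 1 FPKM value per gene and time point for 2 libraries. Per the submitters' processing notes, TopHat2 2.0.8b, Bowtie2 2.1.0.0, Cufflinks and the build hg19 were used. The gene annotation, strand setting and any scaling between columns were not given in the sources read here. Per the labels' protocols, libraries came from 500 ng of total RNA with 10 PCR cycles. Read totals are unknown, and low values place 1 read at D1 at about 0.622 times its FPKM in hESC. Since any scaling between columns is unknown, this does not settle which was read more deeply.

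Differences were taken on log2(FPKM + 1) with pandas and numpy for entries with at least 5 FPKM at D1 or in hESC, and called at 2-fold. The count of calls was checked on simulated data. The comparison has no test, since the libraries are not given apart. Gene types came from GENCODE 29 and RefSeq synonyms by name, and 28796 of 41495 entries had a type; a spreadsheet had turned 27 names into dates. Promoters were matched to RefSeq by symbol. Genes named in the text are members of the lists, the 25 largest protein-coding increases and decreases (10 for small RNAs and for other noncoding genes) without entries at 0 or jumping between columns, the 10 most abundant at D1 and those next to the threshold. Members and lists were chosen with earlier results of these data known. The sort tables were not used here, and some genes are not reported here.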

Additional observations from a re-analysis of the deposited data

How the results depend on the processing

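No test was possible, so the results are counts and values. No paired analysis was possible because the table does not give the 2 libraries of a group apart, and for the same reason no library could be left out. The counts of protein-coding genes (1833 higher, 1258 lower) came to 1106 and 798 with a pseudocount of 5, to 1053 and 666 with a floor of 20 FPKM, and to 296 and 338 at a 4-fold threshold. Small RNAs (49 higher, 156 lower) came to 85 and 238 both with a floor of 1 FPKM and with no filter, and to 10 and 102 without entries listed at 0. With a floor of 20 FPKM 30 small RNAs were higher. Dividing by the protein-coding sum put the median protein-coding difference at 0.30 and rescaling by the median ratio put it at 0.00, against 0.19. Of 308 list members past 2-fold, 291 and 285 stayed past it under these 2 scalings. Each scaling moves all genes the same way by much less than 2-fold, so no such member could change direction. The median of the WNT ligand list came to -0.092 with no filter, where its 21 low members enter. Under the 2 scalings 6 and 3 list medians changed sign, among them the G1 cyclins and CDK inhibitors (0.03, against -0.45), pluripotency (0.01) and heat shock chaperones (0.02) after dividing by the protein-coding sum and the integrated stress response (-0.06) after rescaling. The floor was applied again after scaling, so genes near it can enter or leave a list, and these medians need not cover the same genes. The absence of replicate values limits every difference near the threshold.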

Other observations

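Genes of interferon signalling and of antigen presentation, a list put together after their values were seen, were lower at D1. Of 32 genes 20 passed 5 FPKM, 14 were at least 2-fold lower and 0 higher, with a median difference of -1.52. Of all protein-coding members 12.2% were lower. ISG15, a ubiquitin-like modifier, had 6.05 FPKM at D1 and 216 in hESC, and BST2, which tethers virus particles, had 6.42 and 102. NLRC5, the activator of MHC class I genes, had 0.777 FPKM at D1 and 18.8 in hESC. The class I chains HLA-B (10.5 at D1, 54.9 in hESC), HLA-C (14.8, 33.8) and HLA-E (19.3, 75.3) and their partner B2M (78.9, 275) were lower too. Class I genes are alike in sequence, and reads may be shared among them. IRF9, a part of the factor that interferon activates, had 9.81 FPKM at D1 and 41.7 in hESC, while its partner STAT2 (23.3, 26.9) and the IFITM genes were within 2-fold. B2M stood at 136 FPKM at D2 and 229 at D3, and ISG15 at 13.04 and 16.4.

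Transcript length bore little relation to the direction of change. Of the protein-coding members 95.8% had a length in GENCODE 29. In 5 bins by their longest transcript the median difference was 0.17, 0.21, 0.27, 0.17 and 0.09 from the shortest to the longest. The share at least 2-fold lower was 14.4% in the shortest bin and 11.5% in the longest, and the share higher was 18.5% and 14.6%.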
